A study of Mus musculus with 6 samples.

Results

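The circadian clock genes Per1, Per2, Per3, Dbp, Tef, Hlf, Nr1d1, Nr1d2, Clock and Npas2 were followed in hearts of male mice on 6 expression arrays, 2 for each of 3 groups. The 10 genes were chosen by name, with earlier results of these data known, and all probe sets annotated to exactly 1 of them were taken. This gave 26 of the 45037 non-control probe sets of the table. Every mouse carried the strain label C57BL/6J. The high FASN group was a transgenic line with a high cardiac level of fatty acid synthase (FASN, which makes palmitate), with the transgene under the alpha-MHC promoter of heart muscle cells. The low FASN group was another line with the same promoter and a low cardiac level, and the control group was age-matched B6 mice. With 1 line for each FASN level, the level and other features of a line cannot be told apart. The sources used here give no age, no feeding state and no time of day for the collection of the hearts. Levels of these genes change with the time of day in most tissues, and whether collection time differed between the groups was not tested. The titles number 2 samples a group and do not say whether these were separate hearts. The spread that the p-values rest on may thus be technical.

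The mammalian clock is a transcriptional feedback loop that runs in nearly every cell, heart muscle cells included. CLOCK or its paralog NPAS2 pairs with BMAL1 (gene Arntl) and activates genes through E-box sequences, among them the Per and Cry genes, whose proteins then repress the pair. The same pair drives Nr1d1 and Nr1d2, which encode the REV-ERB repressors of Arntl, Clock and Npas2, and the PAR bZIP genes Dbp, Tef and Hlf, whose proteins activate D-box genes such as Per3. In tissues that follow the clock, transcripts of Arntl and Npas2 usually peak when those of Nr1d1 and Dbp are low.

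Promoter windows from RefSeq (build GRCm38.p6, 250 bases before to 50 after an annotated start) were found for 9 of the 10 genes, 13 windows in all, and none for Per2. Both strands were searched for the E-box CACGTG, the related element CACGTT, the D-box TTATGTAA or TTACGTAA, and the REV-ERB and ROR element as TAGGTCA or TGGGTCA. These motifs do not overlap in the member windows. The E-box was in windows of Per1 and Tef and in 7.15% of all 32851 windows of the same length. CACGTT was in that of Nr1d1 and in 4.68% of all. Per3 held the D-box TTATGTAA at 2 places, beginning 205 and 158 bases before the start, and 1.06% of all windows held a D-box. The REV-ERB and ROR element was in 0 of the 13 windows and in 6.45% of all. The 250 bases before the start are shown for the 3 genes that were higher in the low line than in both other groups (Per3, Dbp and Nr1d2) and for the 2 that were lower in the low line than in control (Per1 and Tef, the first of 2 windows each), since these sets differed from control in opposite directions there. Motif matches are in capitals. The Per3 window is chr4:151044666-151044915, minus strand, and the Dbp window is chr7:45704997-45705246, plus strand. Nr1d2 lies at chr14:18239107-18239356, minus strand. The Per1 window is chr11:69098699-69098948, plus strand, and that of Tef is chr15:81802423-81802672, plus strand.
Per3: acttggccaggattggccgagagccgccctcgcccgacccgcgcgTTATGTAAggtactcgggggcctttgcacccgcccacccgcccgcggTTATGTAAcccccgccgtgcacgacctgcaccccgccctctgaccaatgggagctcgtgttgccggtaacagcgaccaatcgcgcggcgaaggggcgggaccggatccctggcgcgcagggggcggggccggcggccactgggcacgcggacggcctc
Dbp: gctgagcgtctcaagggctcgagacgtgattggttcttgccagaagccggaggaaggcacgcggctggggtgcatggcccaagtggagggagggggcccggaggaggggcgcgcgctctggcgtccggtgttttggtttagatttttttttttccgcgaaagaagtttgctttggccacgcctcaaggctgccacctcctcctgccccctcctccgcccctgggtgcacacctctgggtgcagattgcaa
Nr1d2: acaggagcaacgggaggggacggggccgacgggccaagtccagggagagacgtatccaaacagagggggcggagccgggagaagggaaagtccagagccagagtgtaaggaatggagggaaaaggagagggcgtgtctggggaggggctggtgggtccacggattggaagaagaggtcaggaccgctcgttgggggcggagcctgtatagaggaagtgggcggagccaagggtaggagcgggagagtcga
Per1: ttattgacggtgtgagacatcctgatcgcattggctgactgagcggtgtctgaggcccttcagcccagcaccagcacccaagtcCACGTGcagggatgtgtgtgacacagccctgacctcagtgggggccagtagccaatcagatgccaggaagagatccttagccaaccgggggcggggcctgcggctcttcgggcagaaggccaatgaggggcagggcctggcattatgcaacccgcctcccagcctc
Tef: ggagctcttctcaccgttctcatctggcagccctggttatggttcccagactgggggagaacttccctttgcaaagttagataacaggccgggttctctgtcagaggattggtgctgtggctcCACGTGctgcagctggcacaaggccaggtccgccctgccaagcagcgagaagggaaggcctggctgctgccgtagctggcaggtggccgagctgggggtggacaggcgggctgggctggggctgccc
In the windows shown, matches were present for Per3, Per1 and Tef. A match is a description of these letters and not a measured binding site.

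The arrays followed their labels. The Fasn probe set read 213 and 187 in control hearts, 462 and 481 in low-line hearts and 2268 and 2104 in high-line hearts (signal in arbitrary units, as in all values that follow). Heart muscle genes were bright in all 6 arrays, with 6 of 6 listed markers tested and a lowest marker signal of 8030.0. Across 22519 probe sets, which are no independent replicates, Pearson's r was 0.986 to 0.9899 within groups and 0.9681 to 0.9763 between groups. The number of arrays limits the precision. Probe sets entered the test with a mean signal of at least 49.01, the median of the table. Of the 26 member probe sets, 21 passed this filter and 5 did not (1 of Per2, 2 of Per3, 1 of Clock and 1 of Npas2, with signals from 2.58 to 73.2). All 10 genes kept at least 1. Differences are on the scale log2(signal + 16), which understates changes of dim genes. Calls are limma's, at a Benjamini-Hochberg adjusted p below 0.05 over all probe sets tested, and each adjusted p below is limma's. A call is said to be lost where another setting or the omission of 1 array brought its adjusted p to 0.05 or above.

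Most of the clock genes differed between the groups, and not all in one direction. With each gene represented by its brightest probe set, 6 of 10 were called in the high line against control, 2 higher and 4 lower, where 17.0% of all genes tested were called (10.0% higher and 6.99% lower). One of the 2 higher genes, Npas2, passed the filter only through the transgenic arrays. In the low line against control, 6 of 10 were called, 4 higher and 2 lower, where 27.6% of all genes tested were called (14.9% higher and 12.7% lower). Between the lines, 6 of 10 were called, 2 higher and 4 lower in the high line, where 20.6% of all genes tested were called (11.3% higher and 9.21% lower). Counted over probe sets, 8 of 21 were called in the high line (14.4% of all), 11 of 21 in the low line (24.4%) and 7 of 21 between the lines (18.5%). Without control array 2 the count in the high line was 5 (6.08% of all). In the low line it was 7 without control array 2 (14.3%) and also without low-line array 1 (13.0%). The median size of the difference over the 10 genes was 0.351, 0.440 and 0.575 on the log2 scale in the same order, against 0.185, 0.225 and 0.197 over all genes tested. The median with its sign was -0.11, 0.40 and -0.12, against 0.04, 0.02 and 0.01. The comparisons share arrays, and their values are set side by side below without a measure of overlap. The directions of all 26 called member values were the same under each alternative that gave a value, other scalings included.

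**Figure D1:**
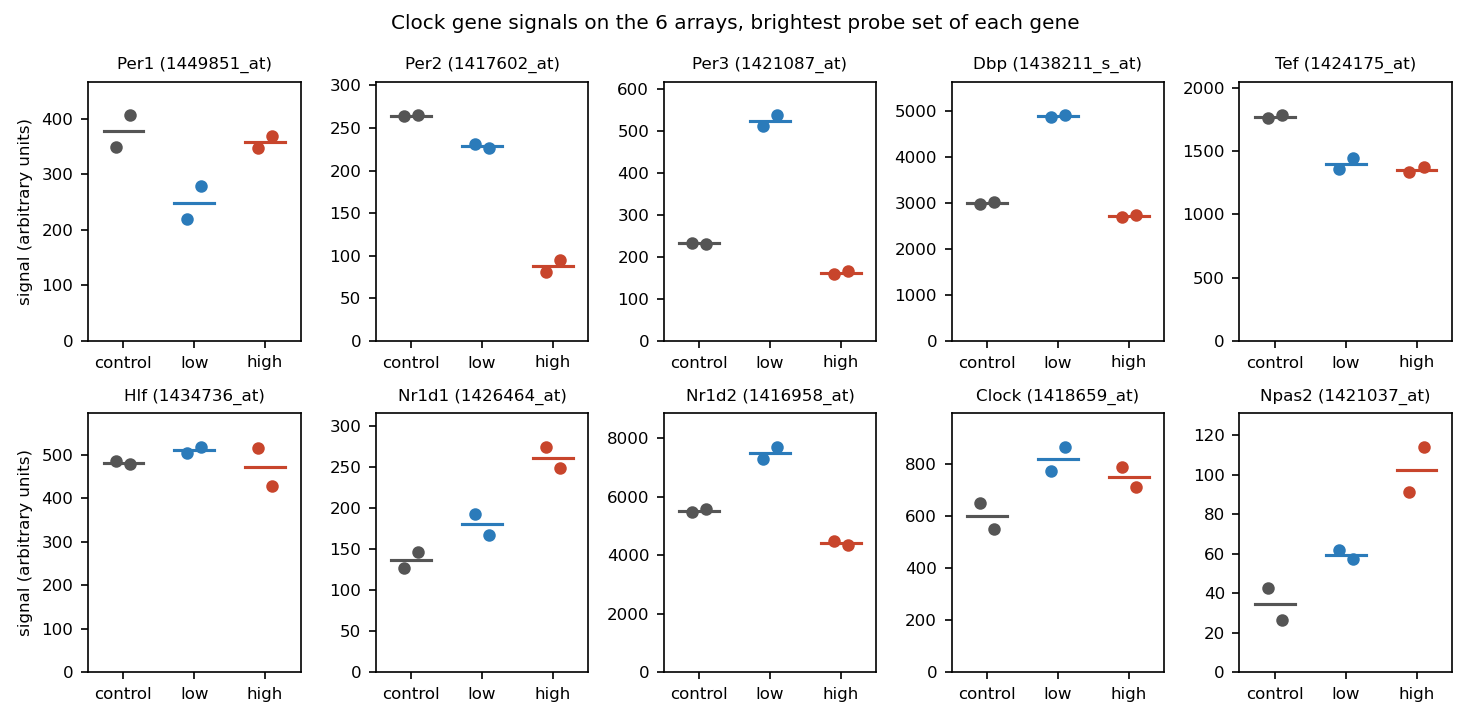
Signal in arbitrary units (y axis, from 0) of the brightest probe set of each of the 10 clock genes in control, low-line and high-line hearts. Each point is 1 array and each bar the mean of 2 arrays; Per3, Dbp and Nr1d2 stand highest in the low line, Per2 lowest in the high line, and Nr1d1 and Npas2 highest in the high line.

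Among the period genes, which encode the repressors at the centre of the loop, each member had its own pattern. Per2 was low in the high line. Its brightest probe set (1417602_at) read 264 and 265 in control hearts, 231 and 227 in low-line hearts and 81.3 and 95.3 in high-line hearts. The groups did not overlap, and the 2 high-line arrays stood far below the other 4. Per2 was lower in the high line than in control by 1.43 ± 0.144 (log2 scale, SE, 2 arrays a group; limma, adjusted p = 0.000286) and lower than in the low line by 1.23 (adjusted p = 0.000716). The low line differed from control by -0.20, which did not pass (adjusted p = 0.365). A dimmer Per2 probe set (1457350_at) read 137 and 148 in control hearts, 95.2 and 124 in low-line hearts and 59.1 and 125 in high-line hearts. Its high-line arrays were far apart, and it passed in no comparison, with a difference of -0.63 from control in the high line (adjusted p = 0.178). That difference ranged from -1.080 to -0.175 as single arrays were left out, and it was called without high-line array 2 (adjusted p = 0.0157).

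Per3 was high in the low line. Its brightest probe set (1421087_at) read 234 and 232 in control hearts, 511 and 537 in low-line hearts and 159 and 166 in high-line hearts, so that the low-line arrays stood above the other 4 and the high-line arrays below them. The group means were 233 ± 1.45, 524 ± 17.9 and 162 ± 4.87 in the same order (SD, n = 2). Per3 was 2.17-fold higher in the low line than in control (1.12 ± 0.113 on the log2 scale, SE; limma, adjusted p = 0.000169) and 3.03-fold lower in the high line than in the low one (adjusted p = 6.97e-05). Per3 in the high line was lower than in control by 0.48 (adjusted p = 0.0214). The call was lost with only the 4 arrays compared (adjusted p = 0.0709) and when control array 1 (0.0964), control array 2 (0.0951), high-line array 1 (0.06), low-line array 1 (0.0533) or low-line array 2 (0.0541) was left out. The other tested Per3 probe sets were dimmer and did not all follow it. One of them, 1441445_at, read 71.6 and 94.2 in control hearts, 162 and 164 in low-line hearts and 93.7 and 128 in high-line hearts and was higher in the low line than in control by 0.86 (adjusted p = 0.0142). The call was lost when control array 1 (adjusted p = 0.0935), low-line array 1 (0.0796) or low-line array 2 (0.0835) was left out. Another, 1458176_at, passed narrowly in the low line, where it was higher by 0.65 (limma, adjusted p = 0.0494). This call was lost in 12 of 15 alternatives, among them each of the 6 that left out 1 array, with a limma adjusted p of at most 0.203. In the high line both of these stood above control and the brightest probe set below it, at 0.36 and 0.52, neither called (limma, adjusted p = 0.292 and adjusted p = 0.132). Probe set 1442243_at read 85.1 and 81.7 in control hearts, 86.5 and 88.4 in low-line hearts and 82.7 and 84.3 in high-line hearts and passed in no comparison.

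Per1, the period gene that also answers quickly to outside signals such as glucocorticoids, was lowest in the low line. Its single probe set (1449851_at) read 349 and 407 in control hearts, 219 and 279 in low-line hearts and 347 and 369 in high-line hearts. The low-line arrays lay below the other 4, and the high line and control overlapped. Per1 was lower in the low line than in control by 0.58 ± 0.138 (log2 scale, SE; limma, adjusted p = 0.0142). The call was lost with no intensity trend in the variance model (adjusted p = 0.0542) and when control array 2 (0.109) or low-line array 1 (0.11) was left out. It was higher in the high line than in the low one by 0.51 (adjusted p = 0.032). That call was lost with no filter on dim probe sets (adjusted p = 0.0674) and with no intensity trend in the variance model (0.094), and when high-line array 1 (0.0625), high-line array 2 (0.0921) or low-line array 1 (0.205) was left out. The high line differed from control by -0.07, not called (adjusted p = 0.78). In the low line Per1 was thus lower and Per3 higher than in control, each past the test.

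The PAR bZIP factors sit at the output of the clock and bind D-box sequences. In both comparisons with the low line, Dbp gave the smallest p-values of the member genes. Its brightest probe set (1438211_s_at) read 2974 and 3024 in control hearts, 4870.3 and 4904 in low-line hearts and 2688 and 2736 in high-line hearts, and its other probe set (1418174_at) read 784 and 770.4 in control hearts, 2006 and 2073 in low-line hearts and 786 and 761 in high-line hearts. On both, the 2 low-line arrays were far above the other 4. The means of 1418174_at were 777 ± 9.43, 2039.6 ± 47.2 and 774 ± 18 in the same order (SD, n = 2). Dbp was higher in the low line than in control by 0.70 ± 0.0504 and 1.37 ± 0.0664 (log2 scale, SE; limma, adjusted p = 2.47e-05 and adjusted p = 2.75e-06, in the same order). It was lower in the high line than in the low one by 0.85 and 1.38 (adjusted p = 3.03e-05 and adjusted p = 9.28e-06). Between the high line and control the differences were -0.14 and -0.01, neither called (adjusted p = 0.0917 and adjusted p = 0.966). The name of the first probe set ends in _s_at, the array maker's mark for probes that can match more than 1 transcript.

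Tef and Hlf, the other PAR bZIP genes, did not follow Dbp. Tef was lower in both lines. Its brightest probe set (1424175_at) read 1759.8 and 1783 in control hearts, 1356 and 1446 in low-line hearts and 1331 and 1374 in high-line hearts, with both control arrays above the other 4. Tef was lower than in control by 0.39 ± 0.0635 in high-line and by 0.34 ± 0.0635 in low-line hearts (log2 scale, SE; limma, adjusted p = 0.00412 and adjusted p = 0.00473). The high-line call was lost with no intensity trend in the variance model (adjusted p = 0.0632). The low-line call was lost with no intensity trend in the variance model (adjusted p = 0.051) and when low-line array 1 (0.0557) was left out. The lines differed from each other by -0.05, not called (adjusted p = 0.633). The dim probe sets 1450184_s_at and 1438033_at passed in no comparison with all arrays and the settings above. They disagreed in sign in the low line, at -0.78 and 0.46. For Hlf, whose brightest probe set (1434736_at) read 484 and 478 in control hearts, 505 and 518 in low-line hearts and 514 and 428 in high-line hearts, the high-line arrays were far apart and overlapped with both other groups. Neither Hlf probe set passed in any comparison. The largest difference was on 1434735_at, -0.30 in the high against the low line (limma, adjusted p = 0.079).

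The REV-ERB genes encode nuclear receptors that repress transcription, and both are direct targets of CLOCK and BMAL1. Nr1d2 (REV-ERB beta) showed the order seen for Per3. Its bright probe set (1416958_at) read 5473 and 5570.3 in control hearts, 7301 and 7700.1 in low-line hearts and 4498 and 4359 in high-line hearts, with no overlap between any groups. The means were 5522 ± 69, 7500.4 ± 282 and 4429 ± 98.4 in the same order (SD, n = 2). Nr1d2 was higher in the low line than in control by 0.44 ± 0.0511 (log2 scale, SE; limma, adjusted p = 0.000353). In the high line it was lower than in control by 0.32 (adjusted p = 0.00371) and lower than in the low line by 0.76 (adjusted p = 5.74e-05). The call of the high line against control was lost with no intensity trend in the variance model (adjusted p = 0.0901). The dim probe set 1416959_at read 66.6 and 50.8 in control hearts, 65.8 and 59.7 in low-line hearts and 70.6 and 55.1 in high-line hearts and passed in no comparison.

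Nr1d1 (REV-ERB alpha) showed another order. Its probe set (1426464_at) read 127 and 146 in control hearts, 193 and 168 in low-line hearts and 275 and 249 in high-line hearts. The order was control, low line, high line, with no overlap. Nr1d1 was 1.82-fold higher in the high line than in control (0.86 ± 0.149 on the log2 scale, SE; limma, adjusted p = 0.00523). The low line differed from control by 0.36, not called (adjusted p = 0.109). The lines differed by 0.50 (adjusted p = 0.0457), a call that was lost in 10 of 16 alternatives, among them each of the 6 that left out 1 array (limma adjusted p at most 0.233). Thus Nr1d1 was higher and Nr1d2 lower in the high line than in control, each past the test.

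The activators Clock and Npas2, which encode interchangeable partners of BMAL1, stood higher in the transgenic hearts. Clock passed in the low line on all of its tested probe sets and in the high line on 2 of 3, and Npas2 passed in the high line. The brightest Clock probe set (1418659_at) read 653 and 549.9 in control hearts, 773 and 868 in low-line hearts and 789 and 714 in high-line hearts. Another (1435775_at) read 213 and 239 in control hearts, 349.8 and 388 in low-line hearts and 412 and 446 in high-line hearts, and the remaining tested one (1418660_at) read 201 and 201 in control hearts, 286 and 305 in low-line hearts and 299.8 and 323 in high-line hearts. On all of these, both control arrays lay below the 4 transgenic arrays. Clock was higher than in control in the low line by 0.44, 0.67 and 0.52 on the log2 scale, in the same order (limma, adjusted p = 0.0142, adjusted p = 0.00295 and adjusted p = 0.0105). In the high line the differences were 0.32, not called (adjusted p = 0.0771), 0.88 (adjusted p = 0.00125) and 0.59 (adjusted p = 0.00978). The calls on 1435775_at held in every alternative that gave a value. On 1418659_at the low-line call was lost with no intensity trend in the variance model (adjusted p = 0.0735) and when control array 2 (0.109) or low-line array 2 (0.119) was left out. On 1418660_at the high-line call was lost when control array 1 (adjusted p = 0.0538) or control array 2 (0.0576) was left out. Its low-line call was lost when control array 1 (adjusted p = 0.0515), control array 2 (0.053) or low-line array 2 (0.0824) was left out. The lines did not differ past the test on any of the Clock probe sets.

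Npas2 was measured by 1 tested probe set (1421037_at), which read 42.6 and 26.6 in control hearts, 61.8 and 57.5 in low-line hearts and 91.1 and 114 in high-line hearts. No groups overlapped, and the order was control, low line, high line. Its mean in control, 34.6 ± 11.4 (SD, n = 2), lay below the filter on brightness, so it passed that filter only through the transgenic arrays and its test supports no count of the genes. Npas2 was higher in the high line than in control by 1.24 ± 0.257 (log2 scale, SE; limma, adjusted p = 0.0121). With all probe sets tested, so that this filter played no part, the adjusted p was 0.0485. The call was lost when control array 2 (adjusted p = 0.0823) or high-line array 2 (0.0545) was left out. The low line stood 0.60 from control (adjusted p = 0.125) and the lines 0.64 apart (adjusted p = 0.116), neither called. Arntl, the shared partner, is named here although it passed in no comparison, a choice made after its values were seen. It read 135 and 153 in control hearts, 156 and 124 in low-line hearts and 174 and 197 in high-line hearts. Its difference from control was 0.33 in high-line and -0.04 in low-line hearts (adjusted p = 0.231 and adjusted p = 0.901).

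**Figure D2:**
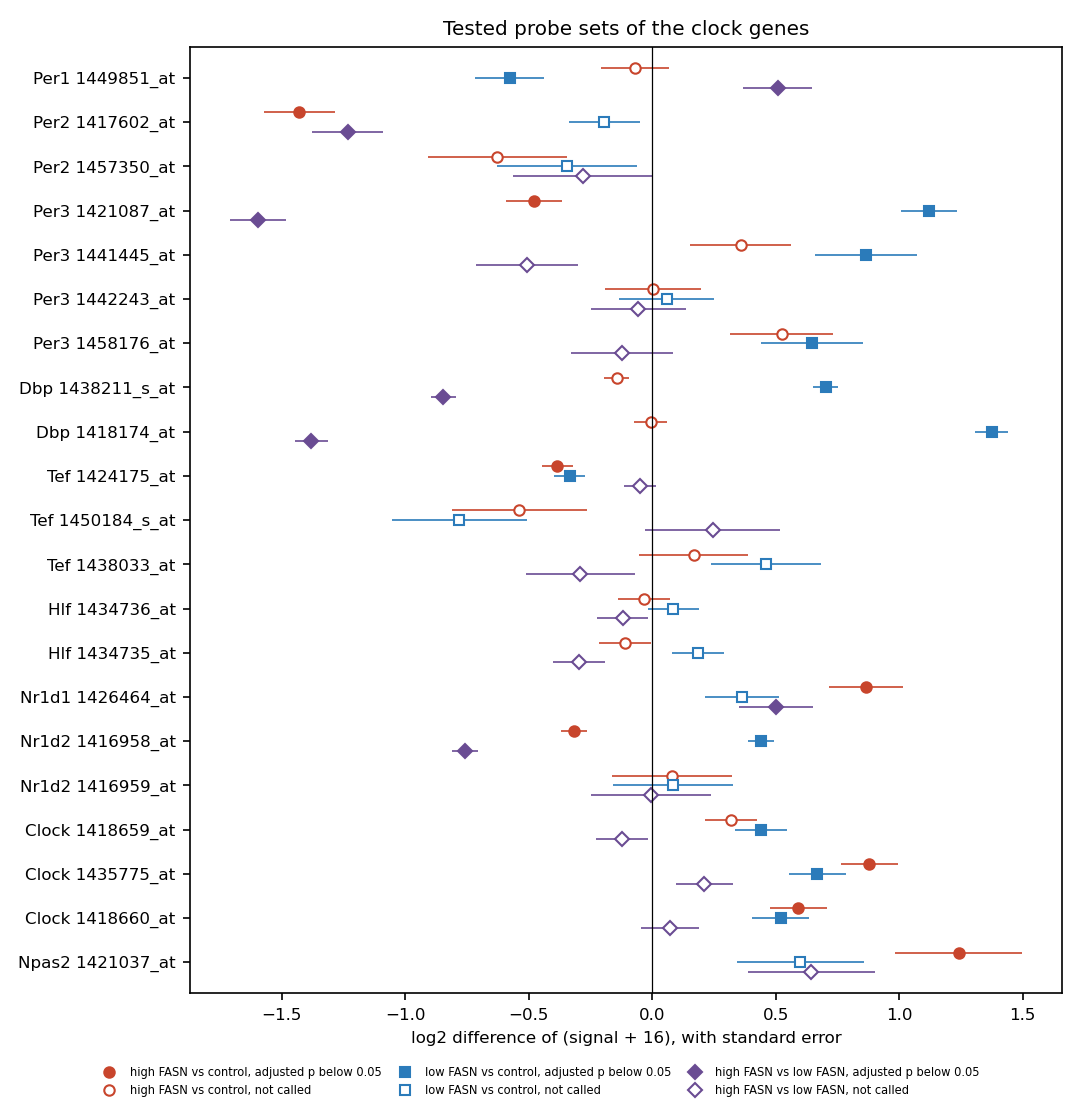
Log2 differences of (signal + 16) with their standard errors (x axis) for the 21 tested probe sets of the 10 clock genes (y axis), for each line against control and for the high against the low line. Filled symbols passed at a limma adjusted p below 0.05; Per3, Dbp and Nr1d2 are to the right for the low line, and Per2 lies at -1.43 for the high line.

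A list of 32 other clock genes and clock outputs, also chosen with earlier results of these data known, was examined in the same fit. Of these, 29 had a probe set with 1 symbol and 26 were bright enough to be tested on their brightest one. In the high line against control 1 of 26 was higher and 10 were lower, where 17.0% of all genes were called. In the low line 2 were higher and 12 lower, where 27.6% were called. Between the lines 3 were higher and 2 lower in the high line, beside 20.6% of all genes. The median over the 26 was -0.08, -0.16 and 0.10 on the log2 scale, against 0.04, 0.02 and 0.01 over all genes. The count in the high line fell when control array 1, control array 2 or high-line array 1 was left out. The share called over all probe sets fell in the same fits. Where 2 differences from control are given together below, that of the high line comes first.

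Among the repressors Nfil3, Cry1 and Cry2 were lower in both lines. Nfil3, which competes with the PAR bZIP factors for D-boxes, read 551 and 421 in control hearts, 229 and 243 in low-line hearts and 246 and 259 in high-line hearts, with both control arrays above the other 4. It was lower than in control by 0.89 in high-line and 0.98 in low-line hearts (limma, adjusted p = 0.00299 and adjusted p = 0.00102). The cryptochrome genes Cry1 and Cry2, whose proteins repress CLOCK and BMAL1 together with PER, were lower as well. Cry2 read 271 and 229.8 in control hearts, 138 and 117 in low-line hearts and 153 and 161 in high-line hearts and was lower by 0.62 and 0.89 (adjusted p = 0.0293 and adjusted p = 0.00326). Cry1 was lower by 0.70 and 0.60 (adjusted p = 0.0211 and adjusted p = 0.0266). The Cry2 call in the high line was lost with no filter on dim probe sets (adjusted p = 0.062) and with no intensity trend in the variance model (0.056), and when control array 1 (0.179), control array 2 (0.0717), high-line array 1 (0.0908) or high-line array 2 (0.0504) was left out. The Cry1 call in the high line was lost with no intensity trend in the variance model (adjusted p = 0.0747) and when control array 1 (0.078), control array 2 (0.133) or high-line array 1 (0.0895) was left out. The Cry1 call in the low line was lost with no filter on dim probe sets (adjusted p = 0.0583) and with no intensity trend in the variance model (0.0641), and when control array 1 (0.0804), control array 2 (0.143), low-line array 1 (0.162) or low-line array 2 (0.0599) was left out. The light- and hypoxia-responsive repressor gene Bhlhe40 was higher in the low line by 0.27 (adjusted p = 0.0223). The call was lost with no intensity trend in the variance model (adjusted p = 0.0922) and when control array 1 (0.143), low-line array 1 (0.0981) or low-line array 2 (0.125) was left out. Ciart, Bhlhe41 and the brightest Rora probe set passed in no comparison. A dimmer Rora probe set, 1455165_at, was higher in the low line than in control by 0.54 and than in the high line by 0.56 (adjusted p = 0.00368 and adjusted p = 0.00452).

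Of 6 tested genes of kinases and ubiquitin ligases that modify clock proteins, Csnk1d and Fbxw11 were called on their brightest probe sets. Both were lower in the low line than in control, where 27.6% of all genes were called, and Csnk1d also separated the lines, where 20.6% were. Csnk1d, a casein kinase that phosphorylates PER, read 1293 and 1273 in control hearts, 855 and 896 in low-line hearts and 1530.2 and 1451 in high-line hearts on its brightest probe set. On this probe set, 1437690_x_at, it was lower in the low line than in control by 0.54 (limma, adjusted p = 0.000485). It was higher in the high line than in the low one by 0.76 (adjusted p = 0.000186). The dimmer tested Csnk1d probe sets had the same directions. Against control in the low line 1449932_at passed (adjusted p = 0.0136), and 1415825_s_at, 1456727_a_at and 1418889_a_at did not (0.0789, 0.659 and 0.115). Between the lines 1415825_s_at and 1456727_a_at passed (0.0211 and 0.0213), and 1449932_at and 1418889_a_at did not (0.0514 and 0.193). The ubiquitin ligase gene Fbxw11 was lower in the low line by 0.21 on its brightest probe set (adjusted p = 0.0275). A second probe set, 1425462_at, was higher there by 0.25 (adjusted p = 0.0408), so no direction can be given for the gene. The call on the brightest one was lost with median centring (adjusted p = 0.0626), with no filter on dim probe sets (0.0674), with no intensity trend in the variance model (0.167) and with quantile normalization (0.0812), and when control array 1 (0.137), control array 2 (0.0992), low-line array 1 (0.12) or low-line array 2 (0.16) was left out. Timeless was lower in the high line than in control by 0.55 and than in the low line by 0.65 (adjusted p = 0.0161 and adjusted p = 0.00643). The first of these calls was lost when control array 1 (adjusted p = 0.1), control array 2 (0.0671) or high-line array 1 (0.0548) was left out. The second was lost when low-line array 2 (adjusted p = 0.0596) was left out. Csnk1e, Csnk1a1, Btrc and Gsk3b passed in no comparison on their brightest probe sets. A dimmer Csnk1a1 probe set, 1437923_at, was higher in the low line than in control by 0.65 and than in the high line by 0.98 (adjusted p = 0.00265 and adjusted p = 0.000601). A dimmer Gsk3b one, 1451020_at, was lower in the low line than in control by 0.39 and than in the high line by 0.43 (adjusted p = 0.0216 and adjusted p = 0.0182). On Gsk3b 1454958_at the high line stood above the low line by 0.26 (adjusted p = 0.029).

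Of 11 tested clock outputs, 6 were lower and 1 higher in the high line, and 7 lower and 1 higher in the low line. Over all genes tested 6.99% were lower and 10.0% higher in the high line, and 12.7% lower and 14.9% higher in the low line. Noct, a clock-driven gene that encodes a phosphatase of nicotinamide dinucleotides, read 2596 and 2658 in control hearts, 1224 and 1198 in low-line hearts and 1296 and 1209 in high-line hearts, with both control arrays above all 4 transgenic arrays. It was lower than in control by 1.06 ± 0.0632 and 1.11 ± 0.0632 (log2 scale, SE; limma, adjusted p = 1.05e-05 and adjusted p = 6.73e-06). Wee1, a cell cycle kinase gene with E-boxes, read 519 and 618 in control hearts, 328 and 301 in low-line hearts and 255 and 236 in high-line hearts and was lower by 1.16 and 0.82 (adjusted p = 0.000333 and adjusted p = 0.00121). A dimmer Wee1 probe set, 1416774_at, stood at -0.51 and -0.24, neither called (limma, adjusted p = 0.125 and adjusted p = 0.424). Usp2, a deubiquitinase gene of the clock, was lower by 0.67 and 0.60 (adjusted p = 0.00025 and adjusted p = 0.000259). Nampt, which makes a precursor of NAD, was lower by 0.48 and 0.77 (adjusted p = 0.000536 and adjusted p = 2.14e-05).

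The glucocorticoid-induced gene Tsc22d3 was lower by 0.55 in high-line and 0.44 in low-line hearts (limma, adjusted p = 0.000571 and adjusted p = 0.00107). Cdkn1a, a cell cycle inhibitor gene, was lower by 0.53 and 0.66 (adjusted p = 0.0299 and adjusted p = 0.00679). Its high-line call was lost with no filter on dim probe sets (adjusted p = 0.0659), with no intensity trend in the variance model (0.105) and with only the 4 arrays compared (0.0532), and when control array 1 (0.155), control array 2 (0.102), high-line array 1 (0.119), low-line array 1 (0.0557) or low-line array 2 (0.0554) was left out. Its low-line call was lost when control array 1 (adjusted p = 0.0545) or low-line array 2 (0.0517) was left out. Others separated the lines, as Dbp did. Klf15, a transcription factor gene of heart metabolism, read 625 and 586 in control hearts, 399 and 426 in low-line hearts and 584 and 616 in high-line hearts and was lower in the low line than in control by 0.54 and than in the high line by 0.52 (adjusted p = 0.00244 and adjusted p = 0.00431). Alas1, the first enzyme of haem synthesis, read 2607 and 2582 in control hearts, 3907 and 3821 in low-line hearts and 2824 and 2937 in high-line hearts and was higher in the low line than in control by 0.57 (adjusted p = 0.000104). It was lower in the high line than in the low one by 0.42 (adjusted p = 0.000999). The Nampt probe sets did not share a direction between the lines. On the dimmer 1455320_at and 1448607_at the high line stood below the low one by 0.11 and 0.60, neither called (limma, adjusted p = 0.217 and adjusted p = 0.0975). On its brightest probe set Nampt was higher in the high line than in the low one by 0.29 (adjusted p = 0.00603). The call was lost with no intensity trend in the variance model (adjusted p = 0.0876) and when low-line array 1 (0.0685) was left out. The channel subunit gene Kcnip2 was higher in the high line than in control by 0.33 (adjusted p = 0.0414), a call lost in 9 of 17 alternatives. They included the omission of control array 1 or 2, low-line array 1 or 2, or high-line array 2, with a limma adjusted p of at most 0.181. A dimmer Kcnip2 probe set, 1425870_a_at, passed narrowly in the low line, higher than in control by 0.455 (limma, adjusted p = 0.0494). In the high line that probe set stood 0.177 above control, not called (adjusted p = 0.47). Kcnd2 and Dgat2 passed in no comparison on their brightest probe sets. A dimmer Kcnd2 probe set, 1422834_at, was higher in the high line than in control by 0.62 (adjusted p = 0.0356).

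**Figure D3:**
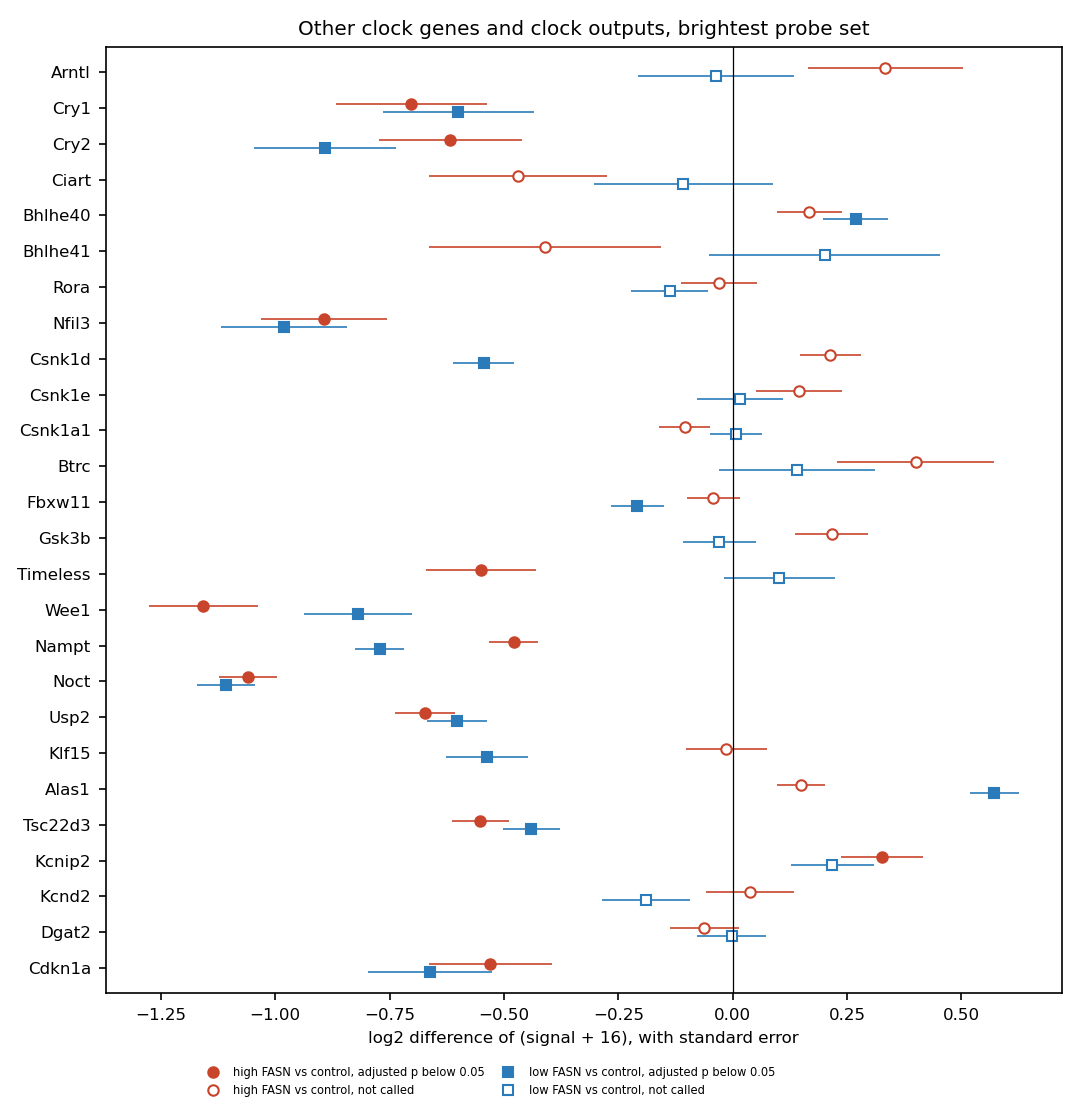
Log2 differences of (signal + 16) with their standard errors (x axis) for the 26 tested genes of the list of other clock genes and outputs (y axis), for each line against the same 2 control arrays. Filled symbols passed at a limma adjusted p below 0.05; Nfil3, Cry1, Cry2, Wee1, Noct, Usp2, Nampt, Tsc22d3 and Cdkn1a lie to the left of 0 for both lines.

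Markers of other cells moved with the groups as well, and their part in the clock gene results was not tested. Counts of calls are on the brightest probe set of each marker. Over all genes tested, 10.0% were called higher and 6.99% lower in the high line against control, and 14.9% and 12.7% in the low line. The summed signal of the 4 measured adipocyte markers (of 6 listed) was 18048 to 19009 for the high-line arrays. It was 11796 to 12087 for the low-line arrays and 1295 to 1369 for the control arrays, with 3 called higher in each line. Sums of the other lists are given below with the groups named in this sequence, whatever their levels. The summed signal of 5 airway and lung markers was 2840.3 to 3109.5, 226 to 267 and 165 to 165, with 3 called higher in the high line and 1 in the other. The airway markers called, Scgb1a1, Scgb3a2 and Bpifa1, had control means of 4.33, 13.3 and 20.7, below the filter on brightness. So did Retn of the adipocyte list (44.3) and Ucp1 of the brown fat list (8.24). All of these passed that filter only through transgenic arrays, so their tests support no count of the markers. Smooth muscle markers (4 of 4 higher in each line) summed to 11173 to 11437, 11074 to 11379.7 and 5017 to 5196. Fibroblast markers (3 of 4 higher in each line) summed to 26425 to 27089, 25320.3 to 25988 and 22019 to 22118. The heart muscle markers summed to 155315 to 172992, 123109 to 124548 and 135676 to 140502, with 5 of 6 higher in the high line and 1 lower in the low line. The 4 brown fat markers, Cox8b among them, which was bright in all hearts, had 2 members higher in each line and summed to 23614 to 25114, 19413 to 19726 and 20807 to 20899. Endothelial markers (1 of 3 higher in each line) summed to 2177 to 2214, 2408 to 2640.3 and 1816 to 1826, and macrophage markers (0 of 3 in the high and 1 of 3 in the low line) to 4567 to 4679.9, 4817 to 4868 and 4220.5 to 4442. No marker was at 0, the lowest signal being 2.47, for Scgb1a1 in control. In these tissue samples fewer cells of a type and less RNA per cell cannot be told apart.

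The probe sets whose pattern over the 6 arrays was most like that of Dbp's brightest probe set were sought among 2551 others. These had 1 symbol and a range of at least 1 on the log2 scale. All probe sets of the clock genes followed here, Dbp included, were left out of these candidates. Those of the list of other clock genes and outputs were left out as well, so no gene of either list could appear. The measure was Pearson's r of the log2 values, given as a description, since the 6 points form 3 groups of 2. The 5 most alike were probe sets of Ttc14 (r = 0.9987), Ccnl2 (0.9968), Adamts9 (0.9955) and Pnisr (0.9949 and 0.9938 on 2 probe sets). Ttc14 read 144 and 144 in control hearts, 294 and 308 in low-line hearts and 128 and 128 in high-line hearts, so that its low-line arrays were above the other 4, as for Dbp. The 5 most opposite were Dync1li1 (-0.9955), Kcna5 (-0.9949), Ttll1 (-0.9949), Spag7 (-0.9944) and Prxl2a (-0.9939). Kcna5, a cardiac potassium channel gene, read 597 and 616 in control hearts, 329.7 and 353 in low-line hearts and 681 and 703 in high-line hearts, with the low-line arrays lowest.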

How the data were processed

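Total RNA of heart tissue (RNeasy Midi kit, biotin-labelled cRNA) had been hybridised to 6 Affymetrix arrays, per the labels' protocols. The authors deposited linear signal intensities per probe set. The submitters' processing notes name GCOS as the software; no version, algorithm or scaling target was found. The 2% trimmed mean of every column was 300.002, so this scaling was kept. Of 45101 probe sets, 64 controls were set aside. Genes were named through the supplied annotation where it gave 1 symbol (34945 probe sets).

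The model was fitted with limma 3.58.1 (R 4.3.3) to log2(signal + 16). It had 3 group means over 6 arrays and a variance trend on intensity in eBayes (residual degrees of freedom 3, prior 6.3), with Benjamini-Hochberg adjustment over the 22519 probe sets with a mean at or above 49.01. On simulated data for the high line against control over 22519 probe sets, 19 of 50 planted differences of 0.5 were recovered, 43 of 50 of 1, 50 of 50 of 2 and 37 of 50 of -1, with 15 unplanted calls.

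The members, the gene lists, the tests and the naming rule (all members, other clock genes called in at least 1 comparison, and the probe sets most like Dbp) were chosen with earlier results of these data known. The brightest probe set leads for each gene. Alternatives changed the scaling, pseudocount, filter, variance model, arrays in the fit, replicate block, probe sets per gene, or left out each array. No scanner file or detection call was used. Figures used matplotlib 3.10.9 under Python 3.11.15.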

Additional observations from a re-analysis of the deposited data

Results flagged for a closer look

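For 6 of the 10 clock genes the difference from the same 2 control arrays was not the same in both lines, by limma's test of the high against the low line on the brightest probe set. Over all genes tested, 20.6% were called in that comparison. In log2 terms the high line minus the low line was -1.60 for Per3, -1.23 for Per2, -0.85 for Dbp, -0.76 for Nr1d2, 0.51 for Per1 and 0.50 for Nr1d1. The limma adjusted p was 6.97e-05, 0.000716, 3.03e-05, 5.74e-05, 0.032 and 0.0457 in the same order. All values of the 2 high-line arrays lay on one side of those of the 2 low-line arrays for each of these genes. The genes were picked by the test of the same arrays, so this separation is no further support. The calls of Per1 and Nr1d1 were lost when single arrays were left out, as given above, while the values kept their sign. Groups of 2 arrays are too small for a check of single arrays that stand apart.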

How the results depend on the processing

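Of 26 called differences of member probe sets, 13 kept their call under every alternative that gave a value, 13 lost it under at least 1, and 0 changed sign. Of 30 called differences of the other clock genes, 19 kept their call, 11 lost it under at least 1 alternative and 0 changed sign. Over member probe sets the count of calls in the high line against control was 8, of 21 tested (14.4% of all), and 5 of 11 (26.1% of all) with a filter at the 75th percentile. In the low line it was 11, and 6 with 1 probe set per gene, which tests 10 in place of 21. Leaving out each array in turn gave 5 to 8 calls in the high line (5 without control array 2, beside 6.08% of all), 7 to 10 in the low line (7 without control array 2 and without low-line array 1, beside 14.3% and 13.0% of all) and 5 to 6 between the lines (7 with all arrays). For the other clock genes these ranges were 6 to 9 (11 with all arrays), 10 to 15 (14) and 4 to 7 (5). With no intensity trend the high-line count of other clock genes was 7; the cause was not tested. Calls were also gained, by Per2 1457350_at in the high line without high-line array 2 and by Tef 1450184_s_at in the low line with quantile normalization (-0.84, limma adjusted p = 0.0487) and without low-line array 2 (-1.15, 0.0347). Over all probe sets, a model with no intensity trend called 1228 in place of 3246 in the high line, 3595 in place of 5494 in the low line and 1444 in place of 4165 between the lines. Leaving out a control array gave 1370 and 1600 in the high line and 3224 and 3388 in the low line, and leaving out a low-line array gave 2925 and 2930 in the low line and 1556 and 1579 between the lines. The high-line count was 2197 with no filter.

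Values that changed sign were all uncalled in both settings, and the cause was not tested. Per3 1442243_at stood at -0.027 with median centring and -0.061 with quantile normalization in the high line, and at -0.009 with quantile normalization in the low line. The other changes of sign came from leaving out 1 array, where the lowest and highest values were as follows. In the high line against control Per1 ranged from -0.176 to 0.035, Per3 1442243_at from -0.023 to 0.027, Dbp 1418174_at from -0.029 to 0.017, Hlf 1434736_at from -0.163 to 0.094 and Nr1d2 1416959_at from -0.074 to 0.233. In the low line Nr1d2 1416959_at ranged from -0.069 to 0.237 and Arntl from -0.189 to 0.114. Between the lines Per2 1457350_at ranged from -0.735 to 0.170, Tef 1450184_s_at from -0.124 to 0.611, Hlf 1434736_at from -0.248 to 0.009 and Nr1d2 1416959_at from -0.146 to 0.137.

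Deviations of same-numbered arrays from their group means correlated at 0.0015 to 0.0363 over 22519 probe sets, so no shift shared over all probe sets was seen. A correlation over all probe sets cannot show whether same-numbered samples were collected or handled together. With the number as a replicate block, 8, 10 and 6 member probe sets were called in the high line, the low line and between the lines, and 11, 14 and 6 other clock genes. The shares called over all probe sets with this block were 15.0%, 25.1% and 19.1% in the same order. Dim probe sets, near the filter at 49.01, have the least signal over background.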
